A study of Mus musculus with 2 samples.

Results

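The genes described here encode keratins, the proteins of desmosomes and a few markers of basal and stratified epithelium, and they were measured in lymph node stroma. They were chosen by name: every non-control probe whose gene name in the array files is a numbered keratin without a letter suffix, a desmoglein, a desmocollin, a plakophilin, Dsp, Jup, Epcam, Trp63, Sfn, Lor, Ivl or Klk10. This took in 105 probes of 69 genes, out of 37008 gene names on the array. The group was proposed after results from the same 2 arrays were known, so the differences below are a description of these arrays.

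Total RNA of lymph node cells sorted as negative for CD45, the pan-leukocyte antigen, was hybridized in 1 color to 2 Agilent mouse arrays. The normal array holds cells from mice without a tumor. The tumor-draining array holds cells from the nodes that drained a 4T1 tumor, taken 2 weeks after the line was placed in the mammary gland. 4T1 is a line of mouse mammary carcinoma that is known to come from BALB/c mice, whereas the labels give C57BL/6 as the strain of the inoculated mice. Both samples are labelled female, and no genotype or transgene is named for either group. The strain of the control mice, the age of the animals, the side or number of the nodes and any pooling of animals are not given in the sources used here. Each group has 1 array. No p-value is therefore given, no replicate can check a difference, and the precision is limited by the number of arrays.

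Keratins form intermediate filaments as pairs of 1 type I and 1 type II chain, and the pair changes with the kind of epithelium. Krt5 and Krt14, with Krt15, are known from the basal layer of stratified epithelia, Krt8 and Krt18, with Krt7 and Krt19, from simple epithelia, and Krt1 and Krt10 from the layers above the basal one. Desmosomes join cells through cadherins, the desmogleins and desmocollins, which bind plakoglobin (Jup) and plakophilins, and desmoplakin (Dsp) ties these to the keratin filaments. The stroma of a lymph node is chiefly made of fibroblastic reticular, endothelial and perivascular cells, which are not epithelial; Krt8 and Krt18 are nevertheless known from fibroblastic reticular cells of the node.

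A few sequences bear on the results and are given first. The probes of Krt15 and Krt19 are shown because these neighbouring type I genes of the minus strand of chromosome 11 gave different results. The Krt15 probe maps to chr11:99993331-99993390 and the Krt19 probe to chr11:100002392-100002451 on the mm9 build, both with 60 bases, and their longest identical run was 5 bases.
Krt15: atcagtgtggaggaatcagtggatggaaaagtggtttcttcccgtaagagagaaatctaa
Krt19: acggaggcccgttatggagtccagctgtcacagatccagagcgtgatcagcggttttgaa

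The brightest of the 4 probes of Trp63, which encodes the p63 transcription factor of basal epithelia, is shown because the other probes of this gene gave smaller differences. It maps to the plus strand at chr16:25871159-25871218 on mm9, and its capitals mark 7 repeats of the triplet GCA.
Trp63: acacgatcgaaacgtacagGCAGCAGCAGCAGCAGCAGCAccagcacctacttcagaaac

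The 250 bases before the transcription start of Krt5 and of Krt14, which encode the 2 chains of the basal keratin pair, are shown because both genes were over 2-fold higher in tumor-draining stroma. They come from RefSeq on GRCm38.p6, lie on the minus strand at chr15:101712906-101713155 and chr11:100206031-100206280, and are written 5′ to 3′ toward the start. The capitals mark the only match to the p53-family half-site, a 10-base part of the motif that p63 is also known to bind.
Krt5: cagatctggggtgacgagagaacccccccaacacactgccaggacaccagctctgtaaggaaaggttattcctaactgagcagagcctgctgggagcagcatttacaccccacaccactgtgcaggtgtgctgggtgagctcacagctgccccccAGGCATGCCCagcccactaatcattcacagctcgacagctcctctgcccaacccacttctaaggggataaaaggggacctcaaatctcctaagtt
Krt14: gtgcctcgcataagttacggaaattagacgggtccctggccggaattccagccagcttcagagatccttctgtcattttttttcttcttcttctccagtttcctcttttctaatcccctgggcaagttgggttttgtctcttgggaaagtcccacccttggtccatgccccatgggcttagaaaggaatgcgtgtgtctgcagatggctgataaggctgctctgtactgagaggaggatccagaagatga

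Values are the scanner software's processed signals in arbitrary units, and a difference is the log2 value of the tumor-draining array less that of the normal array, after each array was scaled to its 75th percentile. A gene is given by its brightest probe. Signals of different genes depend on the probe and are not set against each other. A gene was called higher or lower by size alone, at 2-fold or more, when it was well above background on both arrays. Where only 1 array measured it, the fold is a bound against the dim array's own value or its lowest signal above background, whichever was higher. Against the dim array's own value, such a bound is a plain ratio and not a minimum. The software's own error for a difference among the measured genes ran from 0.20 to 0.37 (log2), and probes of the same gene differed with a median SD of 0.27 over 7599 genes of the array. Neither error covers differences between mice.

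Of the 69 genes, the normal array measured 39 well above background (56.5%) and the tumor-draining array 40 (58%), against 64% and 62.5% of all gene names. Both arrays measured 36 of them, the normal array alone 3, the tumor-draining array alone 4, and neither array 26. Of all 37008 gene names, the same counts in that order were 22152, 1528, 976 and 12352. The software's mark did not follow the signal exactly near its limit. Krt84 at 8.79 and Krt12 at 8.91 carried the mark on the tumor-draining array, whereas Krt32 at 9.09 did not.

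Of the 36 genes that both arrays measured, 8 were higher on the tumor-draining array by 2-fold or more (22.2%), 9 were lower by as much (25%) and 19 lay within 2-fold. Across the array 11.1% of genes were higher and 15.9% lower, and the counts of smaller groups below are to be read beside these shares. The median difference of the 36 genes was -0.02, against 0.12 for the 22152 genes measured on both arrays. Nearest the 2-fold limit, the called genes were Trp63 (1.01), Krt10 (-1.05) and Krt79 (-1.09), and the genes short of it were Dsp (0.88), Krt2 (0.82) and Krt222 (-0.71). Scaled to the spike-in RNA in place of the 75th percentile, every difference rose by 0.82. This left 1 of the 9 lower genes, Krt36, past 2-fold and turned no higher or lower call to the other sign. It also took 8 genes from within 2-fold to higher: Dsp, Epcam, Krt2, Krt8, Krt16, Krt18, Krt23 and Krt86. Of all genes, 46.7% were then higher. Any median given below that lies between -0.82 and 0 was above 0 under that scaling.

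**Figure D1:**
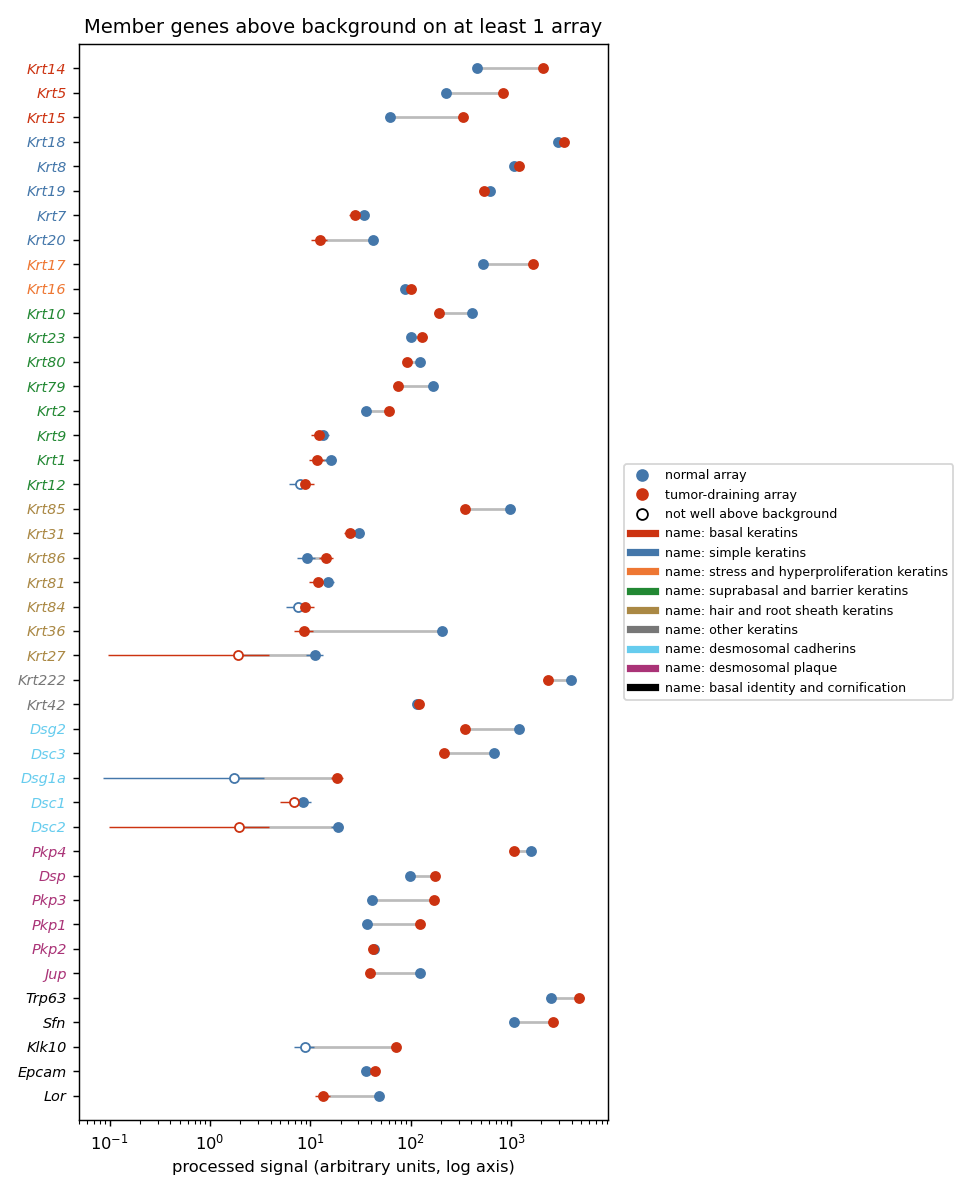
Processed signal (arbitrary units, log axis) of the 43 genes measured on at least 1 array, with normal in blue, tumor-draining in red, open points not well above background and horizontal lines for the software's error of each spot (hidden by most points). Krt14, Krt5, Krt15 and Krt17 lie to the right on the tumor-draining array, whereas Krt18, Krt8, Krt19 and Krt7 nearly coincide and Krt36 lies far to the left.

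The 3 basal keratins were all higher in tumor-draining stroma. Krt14, the basal type I chain, had a normal signal of 458 and a tumor-draining signal of 2087, a difference of 2.25 ± 0.20 (software error), or 4.76-fold. Krt5, its type II partner, went from 226 to 821, a difference of 1.92 ± 0.20 or 3.80-fold. Krt15, a basal type I chain also known from hair follicle stem cells, went from 62.1 to 329, a difference of 2.47 ± 0.21 or 5.54-fold, or 1.68 on the log2 scale with normexp background correction. The median of the 3 genes was 2.25, and each had 1 probe. Among all genes measured on both arrays, their differences stood at percentiles 98.0, 97.0 and 98.6.

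The simple keratins hardly differed between the arrays. Krt8, the simple type II chain, read 1070 in normal and 1205 in tumor-draining stroma (0.23 ± 0.20), and its second probe gave 0.25. Krt18, the type I partner of Krt8, read 2945 and 3338 (0.24 ± 0.20). Krt19, known from ducts and simple linings, read 608 and 534 (-0.12 ± 0.20), and Krt7, a duct keratin, read 33.9 and 27.7 (-0.23 ± 0.23). All 4 differences lay within 2-fold and their mean was 0.03. When scaled to the spike-ins, Krt8 (1.05) and Krt18 (1.06) were past 2-fold, and Krt19 (0.69) and Krt7 (0.59) were not. The mean of the basal keratins exceeded that of the simple keratins by 2.19, or by 1.71 with normexp. Matched by chain, the difference of Krt5 exceeded that of Krt8 by 1.69, that of Krt14 exceeded that of Krt18 by 2.01, and that of Krt15 exceeded that of its neighbour Krt19 by 2.59. The summed signal of the 3 basal keratins went from 745 to 3238, and that of the 4 simple keratins from 4658 to 5105. Such sums lean to the brightest probes, here those of Krt14 and Krt18, and are not set against each other. With bulk RNA, more cells of a type and more RNA per cell cannot be told apart.

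Krt20, a simple keratin known from the gut lining, urothelium and Merkel cells, was lower: it read 41.7 in normal and 12.5 in tumor-draining stroma, a difference of -1.68 ± 0.30. With normexp its difference was -0.44.

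Among keratins known from stress and hyperproliferation, Krt17 was higher and Krt16 was not. Krt17, which appears in skin appendages and wounded epidermis, read 526 and 1634, a difference of 1.70 ± 0.20 or 3.24-fold. Krt16, induced in wounded epidermis, read 88.5 and 101, with 0.26 from this probe and 0.35 from another. Krt75 was above background on neither array. The Krt16 and Krt17 probes share no identical run longer than 8 bases, and those of Krt14 and Krt16 none longer than 10. Over all 36 probes the longest shared run was 16 bases, between Krt81 and Krt85.

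The keratins of suprabasal and barrier layers numbered 14. Both arrays measured 7 of them, with 0 higher, 2 lower and a median of -0.36, or -0.01 with normexp. Among all genes 11.1% were higher and 15.9% lower. Krt10, the type I chain of the layers above the basal one, read 410 and 190 (-1.05 ± 0.20, 2.07-fold lower). Krt79, known from the hair canal and sebaceous duct, read 165 and 74.5 (-1.09 ± 0.21, 2.13-fold lower). Both sat close to the limit and lay within 2-fold with normexp, at -0.90 and -0.73. The mean over both probes of Krt79, of which 1 mapped to the opposite strand and was not above background, was -0.22. Krt1, the partner of Krt10, was dim on both arrays (15.8 and 11.7, -0.38 ± 0.33), from a probe mapped to the plus strand. The probe of its RefSeq transcript maps to the minus strand, read 1.72 and 1.89 and was above background on neither array. Krt2, of the upper epidermis, read 35.6 and 60.4 (0.82 ± 0.22). Krt23 (0.42), Krt80 (-0.36) and Krt9 (-0.05), a keratin of footpad skin, lay within 2-fold. Krt12, the corneal keratin, carried the mark only in tumor-draining stroma, by little (7.90 and 8.91). Krt4 and Krt13, the pair of the oesophagus and other internal stratified linings, were above background on neither array.

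The hair and root sheath keratins were mostly unmeasured, and their counts stand beside 11.1% of all genes higher and 15.9% lower. Of 21, 5 were measured on both arrays, with 0 higher, 2 lower and a median of -0.28 (0.14 over all 21 with no background filter), and 14 were above background on neither. Krt36, a hard type I keratin, showed the widest gap of all members: its signal was 205 in normal stroma and 8.71, close to background, in tumor-draining stroma, a difference of -4.49 ± 0.35 or 22.5-fold lower. A second Krt36 probe was not above background on either array, the mean over both probes was -2.15, and normexp gave -1.98. Krt85, a hard type II keratin of the hair shaft, read 981 and 349 (-1.43 ± 0.20, 2.70-fold lower), from a probe to which the array files give no genome position. Krt86 (0.68), Krt31 (-0.23) and Krt81 (-0.28) lay within 2-fold. Krt27, an inner root sheath keratin, was measured on the normal array only (11.1), which allows a fold of at least 1.29, and Krt84 on the tumor-draining array only. Krt222 read 3942 and 2303 (-0.71, or -1.12 as the mean over both its probes), and Krt42 read 116 and 121 (0.13).

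**Figure D2:**
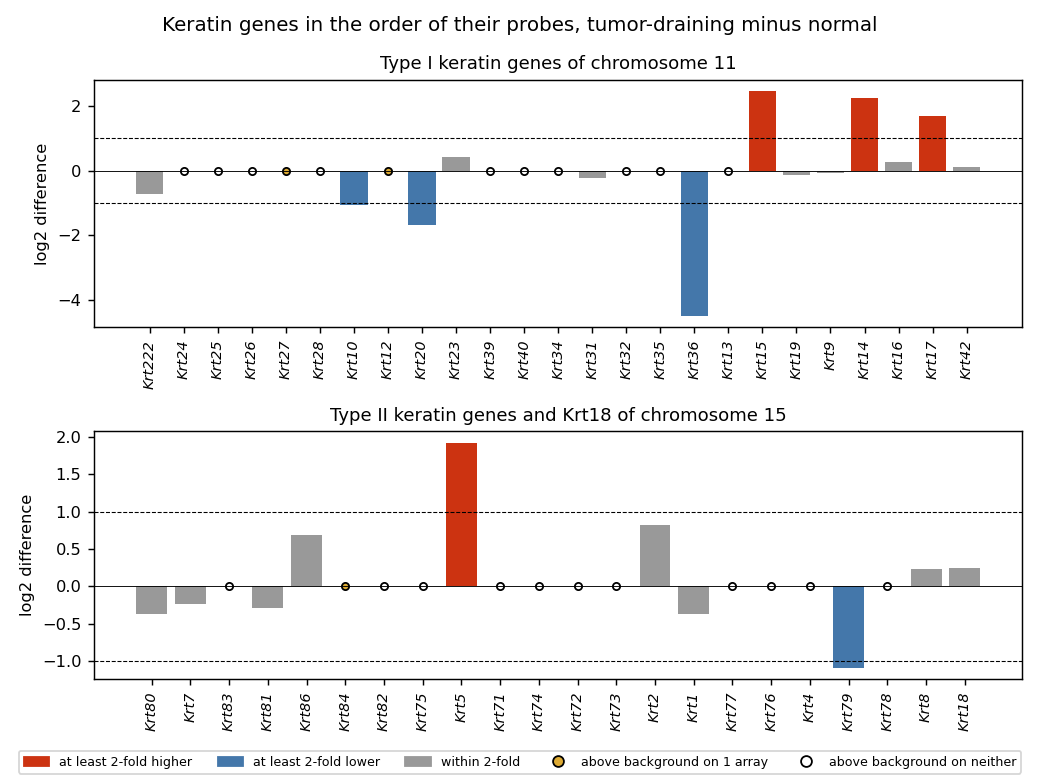
Log2 difference (tumor-draining minus normal) of each mapped keratin gene, ordered by probe position on chromosome 11 (top) and chromosome 15 (bottom), with circles for genes not measured on both arrays and dashed lines at 2-fold. Krt15, Krt14 and Krt17 rise above 2-fold with Krt19, Krt9 and Krt16 between them near 0, and Krt5 is the only bar above 2-fold on chromosome 15.

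Genes that lie side by side gave unlike differences. All type I keratin genes described here but Krt18 sit in a cluster on chromosome 11, and the type II genes, with Krt18, on chromosome 15. Along 135 kb of chromosome 11 on mm9, the probes follow each other as Krt15 (2.47), Krt19 (-0.12), Krt9 (-0.05), Krt14 (2.25), Krt16 (0.26), Krt17 (1.70) and Krt42 (0.13). The 3 higher genes of this stretch thus each have a neighbour within 2-fold. The probes of Krt15 and Krt19 lie 9.06 kb apart, those of Krt14 and Krt16 42.9 kb and those of Krt16 and Krt17 10.2 kb. On chromosome 15, Krt5 (probe at chr15:101537514-101537573) was the single type II keratin called higher. Of the 26 type I genes, 14 were measured on both arrays, with 3 higher, 3 lower and a median of 0.04. Among the 22 type II genes, 10 were measured, with 1 higher, 2 lower and a median of -0.26. The shares over all genes were 11.1% higher and 15.9% lower.

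The desmosome genes differed in both directions, with 2 plakophilins higher and the 2 cadherins measured on both arrays lower. Of the 15 desmosome genes, 8 were measured on both arrays, with 2 higher, 3 lower and a median of -0.25. Over the whole array, 11.1% of genes were higher and 15.9% lower. Pkp3, a plakophilin of most epithelial desmosomes, read 41.1 and 168 (2.10 ± 0.21, 4.28-fold), or 1.25 with normexp. Pkp1, the plakophilin of stratified and suprabasal layers, read 36.7 and 123 (1.81 ± 0.22, 3.50-fold), or 0.98 with normexp. Both were well above background on both arrays, though dim on the normal one. Pkp2, known from simple epithelia and the heart, read 42.8 and 41.6 (0.02), and Pkp4, which also sits at other junctions, read 1577 and 1057 (-0.52), with its measured probes from -0.80 to 0.00. Dsp, the linker to keratin that every desmosome holds, read 98.5 and 174 (0.88 ± 0.21), short of 2-fold.

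Jup, or plakoglobin, which serves in desmosomes and in classical cadherin junctions, was lower at 123 and 39.3 (-1.58 ± 0.21, 2.99-fold lower), with a second probe at -1.50; with normexp it was -0.82. Dsg2, the desmoglein of simple epithelia and the heart, read 1201 and 347 (-1.73 ± 0.20, 3.32-fold lower), with a second probe at -2.13. Dsc3, a desmocollin of basal layers, read 677 and 213 (-1.61 ± 0.20, 3.04-fold lower), with a second probe at -3.24 and a mean over these probes of -2.42. In all 3 genes the second measured probe pointed the same way.

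The other cadherins were near or below background. Dsg1a, a desmoglein of the upper epidermis, was measured only on the tumor-draining array, at 18.6 against 1.73, which gives at least 2.51-fold higher. Dsc2, a widespread desmocollin, was measured only on the normal array, at 18.7 against 1.96, which gives at least 2.16-fold lower. Dsc1 was measured on the normal array only, at 8.35, with no fold past 1. Dsg1b, Dsg1c, Dsg3, the basal desmoglein, and Dsg4, the hair desmoglein, were above background on neither array. Of the 2504 genes of the array measured on 1 side only, 36.3% had a bound of at least 2-fold, as did 3 of the 7 described genes so measured.

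Among the markers of basal identity and cornification, Sfn, the brightest probe of Trp63 and, against an unmarked normal value, Klk10 were higher, and Lor was lower. Sfn, or 14-3-3 sigma, a p53 target abundant in stratified epithelia, read 1056 and 2599 (1.36 ± 0.20, 2.57-fold). Klk10, a secreted kallikrein protease of epithelia, read 71.1 on the tumor-draining array and 8.88 ± 2.07, not well above background, on the normal one. That normal value exceeds the lowest marked signal there (7.72), so the fold of 8.36 is a plain ratio (3.06 ± 0.37) and not a minimum. Lor, or loricrin, the main protein of the cornified envelope, read 48.0 and 13.4 (-1.78 ± 0.30, 3.43-fold lower), or -0.49 with normexp. Ivl, or involucrin, an early protein of that envelope, was above background on neither array. Epcam, an adhesion molecule of simple epithelia, was dim on both arrays, at 35.9 and 43.9 (0.35 ± 0.22).

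Trp63 gave unlike values by probe. The repeat-bearing probe shown above read 2476 and 4785 (1.01 ± 0.20, 2.02-fold). The other probes above background read 96.1 and 107 (0.21) and 16.5 and 17.7 (0.16), and the fourth was not above background. The call for this gene thus rests on 1 probe, and the mean over its 4 probes was 0.39. The call was also lost with loess (0.92), quantile normalization (0.95) and the authors' deposited table (0.97), and the mean over the 3 probes above background was 0.46. The array carries 3 probes with at least 6 repeats of this triplet in any frame, and the other 2, for Crebbp and BC051142, read 0.73 and 0.87. The part of the repeat in the Trp63 value was not tested.

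**Figure D3:**
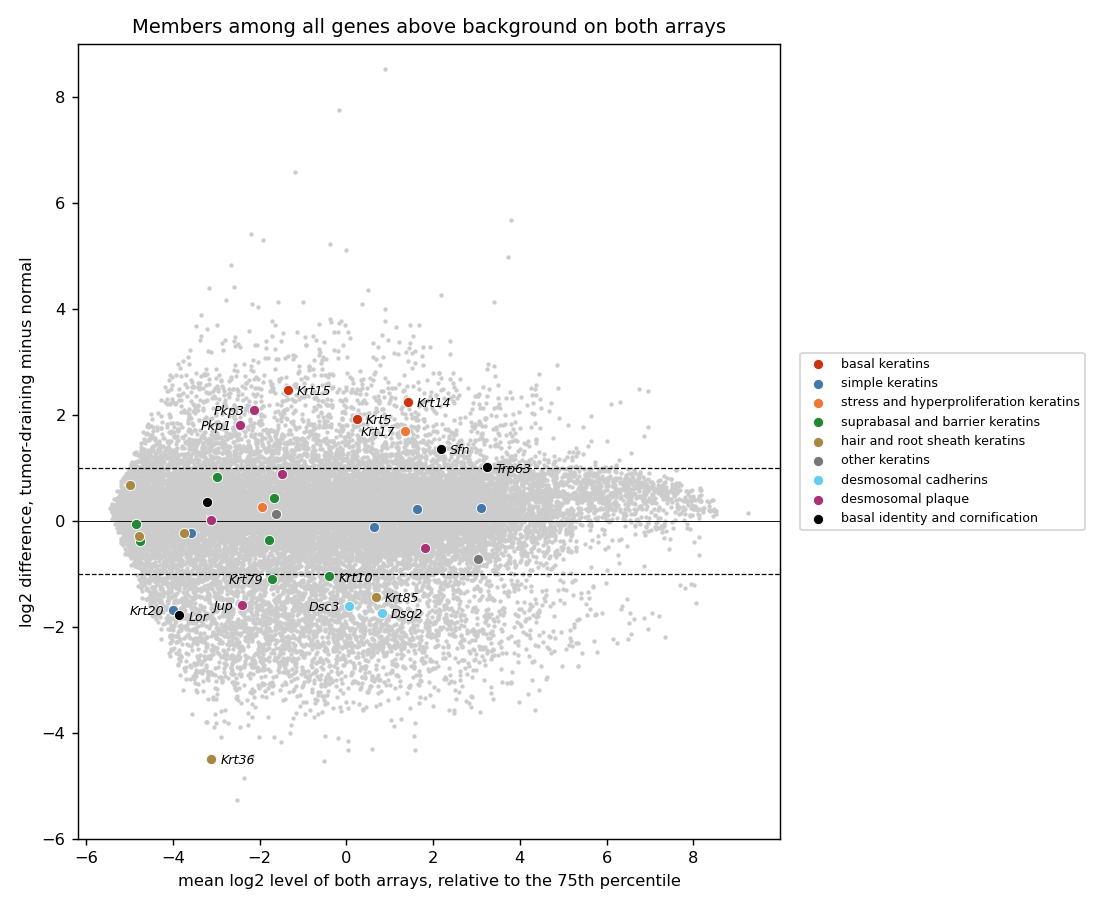
Log2 difference (tumor-draining minus normal) against the mean log2 level of both arrays relative to the 75th percentile, with all 22152 genes measured on both arrays in grey, the 36 described genes colored by role and dashed lines at 2-fold. The called genes lie inside the cloud of other genes, and Krt36 lies near its lower edge.

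Promoters of 42 of the 69 genes were matched by symbol in the RefSeq table, 44 in all, and 3 motifs were searched for on both strands of the 250 bases before the start. TATAAA, the core of a TATA box, was in 18 of the 44 (40.9%), against 12.4% of the 32851 promoters of the table. In 14 of the 18 it lay 26 to 31 bases before the start. It was in 11 of 19 promoters (57.9%) of genes above background on neither array and in 7 of the other 25 (28%). GCCNNNGGC, an AP-2 motif, was in 11.4%, against 13.7% in the table, and the p53-family half-site in 11.4%, against 7.13%. The Krt5 stretch shown above holds the p53-family half-site 95 bases before the start and neither of the others. The Krt14 stretch holds none of the 3. A match describes these letters alone.

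Epithelial genes outside the naming rule also differed in both directions. Across the array, 11.1% of the genes measured on both arrays were higher by 2-fold or more and 15.9% were lower. The lists were drawn up with earlier results of these arrays known. Of 17 genes of hemidesmosomes and basal epithelium, 16 were measured on both arrays, with 5 higher, 3 lower and a median of 0.54, which turned to -0.82 over those of the list at or above the median level of all genes. The basal serpin Serpinb5 (1.40), the transcription factor Tfap2c (1.47), the stratified epithelial lectin Lgals7 (1.32) and the hemidesmosome collagen Col17a1 (1.17) were higher, as was Bcl11b (2.48), which is also a T cell gene. The hemidesmosome integrin chain Itgb4 (-1.46), the plakin Dst (-1.34) and the tetraspanin Cd9 (-1.19) were lower, while the brightest probe of Itga6, the partner of Itgb4, lay within 2-fold (0.47). Probes of these genes differed: the 5 of Itga6 ran from -0.86 to 1.67, the 2 measured for Itgb4 from -1.46 to -0.14, the 5 for Dst from -1.88 to -0.31 and the 2 for Col17a1 from 0.74 to 1.17. Of 20 general epithelial genes, 18 were measured, with 3 higher, 0 lower and a median of 0.45. These 3 were the membrane protease St14 (2.05), the epithelial sorting adaptor Ap1m2 (1.78) and the transcription factor Grhl2 (1.48). Cdh1, or E-cadherin, read 63.9 and 109 (0.83), and the tight junction gene Cldn4 was -0.48.

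Genes of the cornified envelope and of keratinocyte differentiation gave 0 higher and 4 lower of 11 measured and a median of -0.42. That median turned to 0.14 with no background filter and to 0.40 when scaled to the spike-ins. Ppl, the periplakin that links keratins to the envelope and is not confined to skin, fell by 3.29 on the log2 scale. Krtdap (-2.50), Sprr1a (-1.85) and Sbsn (-1.70) were also lower, and Tgm3 (0.83) and Dmkn (0.71) were within 2-fold. Of 12 measured genes listed as intermediate filament partners and neighbours, 1 was higher and 6 were lower, with a median of -1.13. The higher one was Krtcap3 (1.83), which is named for an association with keratinocytes. Among the lower ones were the filament genes Des (-3.36), Nes (-2.01) and Vim (-1.37). A second measured probe of Des gave 0.42, and averaging all probes of each gene gave a list median of -0.72. Counted once, the 3 epithelial lists held 45 measured genes, with 8 higher, 7 lower and a median of 0.35. The array as a whole had 11.1% of genes higher, 15.9% lower and a median of 0.12.

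**Figure D4:**
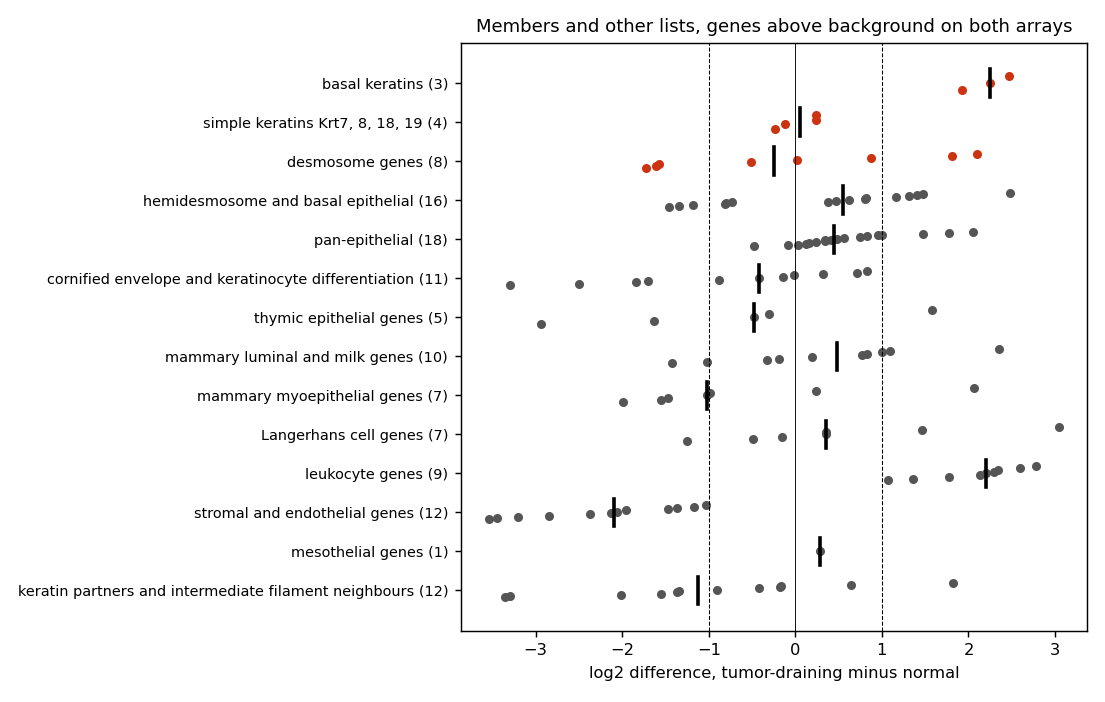
Log2 difference (tumor-draining minus normal) of every gene measured on both arrays in each list, with the described genes in red, the other lists in grey, a black bar at each median, the number of genes in brackets and dashed lines at 2-fold. The 3 basal keratins lie between 1.92 and 2.47, all 9 leukocyte genes lie right of the upper line and all 12 stromal and endothelial genes left of the lower one.

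Markers of other cell types also differed between the arrays. The counts of all these lists stand beside 11.1% of all genes higher and 15.9% lower. All 9 leukocyte genes were higher, with a median of 2.20 and a summed signal that went from 26761 to 93508, and Ptprc, which encodes the sorted-out antigen CD45, went from 3702 to 17432. All 12 stromal and endothelial genes were measured on both arrays and all were lower by their brightest probe, among them Pdpn (-1.96) and Pecam1 (-1.17). Their median was -2.10 and their summed signal went from 112598 to 34896. Col1a1 (54898 and 18917) was the largest part of these sums, and its 4 measured probes ran from -2.06 to 0.86. The part of these marker shifts in the differences of the keratins and desmosome genes was not tested.

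Of 7 Langerhans cell genes, all measured, 2 were higher and 1 was lower, with a median of 0.35, or -0.16 over its brighter genes. Their summed signals were 9283 and 8416, of which Cd24a alone gave 7161 and 6144, so the sums mostly describe that gene. Cd207, or langerin, which defines Langerhans cells, went from 47.6 to 19.1. The integrin chain Itgae (55.0 and 436, 3.05) and the endocytic receptor Ly75 (78.0 and 207, 1.47), both also known from other leukocytes, were the higher ones. Of 8 thymic epithelial genes, 5 were measured, with 1 higher, 2 lower, a median of -0.48 (0.34 when scaled to the spike-ins) and summed signals of 768 and 316. The defining Foxn1 and Psmb11 were above background on neither array, and Aire, which rare cells of lymph nodes are also known to express, went from 473 to 146.

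Of 12 mammary luminal and milk genes, 10 were measured, with 3 higher, 2 lower, a median of 0.48 and summed signals of 2467 and 6172. The highest was Gata3 (911 and 4459, 2.35), also a T cell gene, and without it the summed signals were 1556 and 1713. Of the milk protein genes, Csn3 (553 and 607, 0.19) and Lalba (114 and 87.0, -0.33) were measured on both arrays, and Csn2 and Wap were above background on neither. All 7 mammary myoepithelial genes were measured, with 1 higher, the oxytocin receptor Oxtr (2.06), 4 lower and a median of -1.02, and their summed signals were 43353 and 18731. Contractile genes of this list, such as Acta2, Myh11 and Tagln, are not confined to myoepithelium. The part of cells of these kinds in the differences was not tested.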

How the data were processed

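The deposited scanner output, 1 file per array, gives each spot's intensity on a linear scale, background-subtracted by Agilent Feature Extraction 12.0.3.1 with protocol GE1_1200_Jun14, per the file headers, which also give the mm9 build. The submitters' processing notes name Feature Extraction 10.7 and limma. A value table deposited by the authors is in log2 units and follows the log2 processed signal (r = 0.9999, column medians 4.85 and 4.86). Its normalization steps are unknown, a one-color value has no direction, and it served as an alternative only.

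Those headers give the same scan time for both arrays. The members and gene lists were chosen with earlier results of these data known. Spots marked non-uniform or as outliers were left out with the controls. The log2 processed signal was reduced by the 75th percentile of the 59305 non-control spots (374 on the normal and 358 on the tumor-draining array), replicate spots were averaged, and each gene took the probe with the highest mean. Above background means that at least 50% of a probe's spots carry the software's mark (36783 and 35570 of 56605 probes, with lowest signals of 7.72 and 8.27), and no non-control spot was saturated. Probe names were updated through RefSeq tables (32994 by accession, 10224 by symbol, 520 by synonym, 12867 kept), except that members keep the names in the files. The naming rule took members past 2-fold, the leading markers of each role and, from the other lists, the 2 highest and 2 lowest genes and fixed markers. Other genes named were chosen after their values were seen, and not all that the rule allows are printed.

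The scripts were tested on simulated data. Alternatives were normexp (offset 50), loess (span 0.3), quantile, median and spike-in scaling, other probe rules, filters and the authors' table. The tools were Python 3.11.15 (numpy 2.4.6, matplotlib 3.10.9, pandas 2.3.3) and limma 3.58.1 in R 4.3.3.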

Additional observations from a re-analysis of the deposited data

How the results depend on the processing

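No paired analysis was possible because each group has 1 array. No called gene changed sign under any alternative run. The gap between basal and simple keratins was 1.71 with normexp and 1.97 to 2.19 otherwise. Of the genes higher (8) and lower (9), the counts were 5 and 4 among genes at or above the median level, 16 and 1 when scaled to the spike-ins, 13 higher with no background filter and 4 lower with normexp. Scaling to the spike-ins raised the median of the described genes to 0.80, as it raised all genes, of which 46.7% were then higher and 8.08% lower. Of desmosome genes, 0 were higher among brighter genes and 1 with normexp, and 0 were lower when scaled to the spike-ins. Of genes in the epithelial lists, 1 was higher and 3 lower among brighter genes, 3 were higher with normexp, 26 higher and 3 lower when scaled to the spike-ins, and 4 lower with the mean over all probes. The brighter-gene filter tests fewer genes, and spike-in scaling adds 1 constant. Normexp was run with an offset of 50 added to every signal, which draws log2 differences of dim genes toward 0. The part of the offset in each lost call, and the cause for the other settings, was not tested. With a mark required on every probe, 29 and 27 genes were above background. Normexp took 6 called genes within 2-fold: Jup, Krt10, Krt20, Krt79, Lor and Pkp1. Signals near background limit Krt36, Krt20, Lor and Klk10.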

Other observations

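Keratin-associated protein genes, which encode the matrix of the hair shaft, were not part of the naming rule. Of 55 such genes on the array, 22 were measured on both arrays, some far above background, such as Krtap4-6 (14729 and 20200) and Krtap4-13 (3204 and 5009), and 32 on neither. Krtap16-3 was higher (2.09) and Krtap11-1 lower (-2.17), and the median was 0.24.

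The naming rule left out keratins with a letter suffix. Krt6a, a keratin of wounded and hyperproliferative epidermis and a partner of Krt16 and Krt17, read 137 in normal and 167 in tumor-draining stroma (0.35). Its copy Krt6b was dim (10.5 and 9.35), and the hair keratins Krt33a and Krt33b were above background on neither array. The copies of Krt6 are nearly identical, so these probes may share targets. Krtcap3, named for an association with keratinocytes, read 374 and 1269 (1.83).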
